A study of Mus musculus with 15 samples.

Results

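The comparison set the livers of adult male mice from both malnutrition exposures against control livers. It used 9 of the series' 15 arrays: 6 exposed and 3 control. All 9 were chosen by their sample titles and treatment labels, and no measured value entered the choice. The exposed arrays were 3 pools of liver from males whose supply of calories was cut by 50% before birth (intrauterine growth restriction, IUGR F1, pools 4, 5 and 6) and 3 pools from males overfed while suckling (overnutrition, ON F1, pools 7, 8 and 9). The control arrays were 3 pools of male liver (pools 1, 2 and 3) whose titles say that they were drawn from the first and the second generation. The other 6 arrays held liver of adult sons of IUGR males (IUGR F2, pools 10, 11 and 12) and of ON males (ON F2, pools 13, 14 and 15). They served to estimate the spread and for 1 comparison of exposed males with that next generation. Each array carried a pool of whole liver, so the spread between single mice is not seen. Strain, exact age, litter and the composition of each pool are not given in the sources used here. Whether the pools of a group came from separate litters is not said, and the p-values then reflect only how far these pools spread, which may be technical. The control pools mix generations while the exposed pools do not, so exposure and generation are not fully apart in this comparison.

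The liver keeps blood glucose up between meals, makes cholesterol and bile acids, and secretes most plasma proteins, among them the acute phase and complement proteins. Undernutrition before birth and overfeeding before weaning are different insults, 1 of too little food and 1 of too much, yet both are used as models of later insulin resistance and fatty liver. Per the design text, the study asked whether liver expression in exposed males recurs in their sons, and the comparison described here concerns the exposed males.

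Levels are log2 values made by the RMA method per probe set, and a difference of 1 on this scale is a doubling. Differences are exposed minus control, with the IUGR F1 and ON F1 means weighted alike, and are given ± standard error from 1 limma model over all 15 arrays. A gene was called when its p-value, adjusted by Benjamini-Hochberg over all 18193 genes, was under 0.05. Pairwise correlations between arrays lay between 0.9833 and 0.9954, and no 2 arrays held identical values. All 15 arrays read as male, with Xist, the transcript of the inactive X chromosome, between 3.75 and 4.44 and the Y-linked Eif2s3y between 7.59 and 8.22. Hepatocyte markers were high in every pool: the mean level of 14 such genes was 12.70 to 12.73 in control and 12.63 to 12.70 in exposed pools. The log2 signal of the actin control at the 3′ end over that at the 5′ end, which grows as RNA is shortened, averaged 1.98 ± 0.15 (SD, n = 6) in exposed and 1.87 ± 0.10 (SD, n = 3) in control pools (exact permutation test over pools, two-sided, p = 0.3095). It averaged 1.88 in IUGR F1 and 2.08 in ON F1, where pools 8 and 9, at 2.22 and 2.09, lay above every control pool (at most 1.94). The same ratio for Gapdh averaged 1.15 in control, 1.14 in IUGR F1 and 1.30 in ON F1. The part of RNA quality in values that differ between the exposures was not tested beyond a fit with the actin ratio as a covariate.

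Only 2 genes passed the test, Rimklb and Slc7a4, both higher after exposure, which is 0.011% of the genes tested. No gene was called lower. Rimklb encodes an ATP-dependent ligase of the RimK family that joins glutamate to N-acetylaspartate or citrate. Its level was 4.89, 4.94 and 4.75 in control pools 1 to 3, 5.24, 5.24 and 5.32 in IUGR F1 pools 4 to 6, and 5.45, 5.46 and 5.41 in ON F1 pools 7 to 9. All 6 exposed pools lay above all 3 control pools, and the ON F1 pools lay above the IUGR F1 pools. The rise was 0.49 ± 0.06 (limma, adjusted p = 0.0133), or 1.40-fold, with a 95% interval of 0.36 to 0.62. Slc7a4 encodes a member of the cationic amino acid transporter family. Its level was 6.33, 6.29 and 6.28 in the control pools, 6.78, 6.86 and 6.77 in IUGR F1 and 6.95, 6.70 and 6.77 in ON F1. The exposed pools again lay clear of the control pools, and IUGR F1 and ON F1 overlapped. The rise was 0.51 ± 0.07 (limma, adjusted p = 0.018), or 1.42-fold.

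Both exposures had these genes above control, Slc7a4 by the same amount and Rimklb by less in IUGR F1. Slc7a4 averaged 0.51 above control in IUGR F1 and 0.51 in ON F1, and the 95% interval of the difference between the exposures ran from -0.17 to 0.17. Rimklb averaged 0.40 above control in IUGR F1 and 0.58 in ON F1. The 95% interval of IUGR F1 minus ON F1 ran from -0.32 to -0.03 for Rimklb, and its adjusted p over all genes was 0.713 (limma). Both exposures were set against the same 3 control pools, so their agreement is not independent. Against control alone, 0 genes were called in IUGR F1, at 1534 genes with an unadjusted p under 0.05 (limma). Other settings called Ces1g in IUGR F1 (9 arrays alone, adjusted p = 0.0468), Mndal (array weights, 0.0388, and mean of probe sets, 0.0355) and Slc7a4 (array weights, 0.0388). In ON F1 4 were called against control, namely Rimklb, Slc7a4, Rasl12 and Arhgef16, all higher. With the 9 arrays alone no gene was called in ON F1, and with array weights or median centring Slc7a4 and Arhgef16 were not. Some settings called the complement C5 gene Hc lower in ON F1 (limma). They were a trended (adjusted p = 0.0445) or robust moderation (0.0378), median centring (0.0438), and leaving out control pool 1 (0.0467) or ON F1 pool 9 (0.0411). Leaving out ON F1 pool 9 called further genes in both directions.

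Both calls rested on the model over all arrays and on the brightest probe set of the gene. With the 9 arrays of the comparison alone 0 genes were called (limma), the adjusted p of both genes being 0.1328. With the mean over all probe sets of a gene 0 were called, with 0.2123 for Rimklb (adjusted p = 0.166) and 0.2971 for Slc7a4 (adjusted p = 0.1059). Rimklb has 3 dimmer probe sets here: 2 differed by 0.20 and 0.22 in the same direction and 1, at a mean level of 3.41, by -0.05. The 2 dimmer probe sets of Slc7a4 differed by 0.20 and 0.18, both higher in exposed pools. Without control pool 1, control pool 3 or IUGR F1 pool 6 neither gene was called. Without control pool 2 or IUGR F1 pool 4 or 5 Rimklb was called and Slc7a4 was not.

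The stretch of 250 bases before the Rimklb start is shown because Rimklb had the smallest p-value of the comparison. RefSeq places it at chr6:122486306-122486555 on the minus strand of GRCm38.p6. It was searched on both strands for 7 short motifs: the E-box CACGTG and D-box TTATGTAA of clock regulators, the cAMP response element TGACGTCA and its shorter core TGACG, the glucocorticoid receptor core TGTTCT, the part CCACG of the endoplasmic reticulum stress element, and the heat shock unit GAANNTTC. TGACG lies within TGACGTCA, and CCACG can overlap CACGTG. None of these was found, so the window is printed without capitals. No match says only that these letters are absent from this window.
Rimklb: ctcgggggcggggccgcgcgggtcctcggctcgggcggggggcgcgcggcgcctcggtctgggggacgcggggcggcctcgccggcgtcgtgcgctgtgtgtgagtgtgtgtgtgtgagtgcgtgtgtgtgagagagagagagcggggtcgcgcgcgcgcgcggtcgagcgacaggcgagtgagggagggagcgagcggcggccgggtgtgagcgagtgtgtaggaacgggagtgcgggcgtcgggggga

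**Figure D1:**
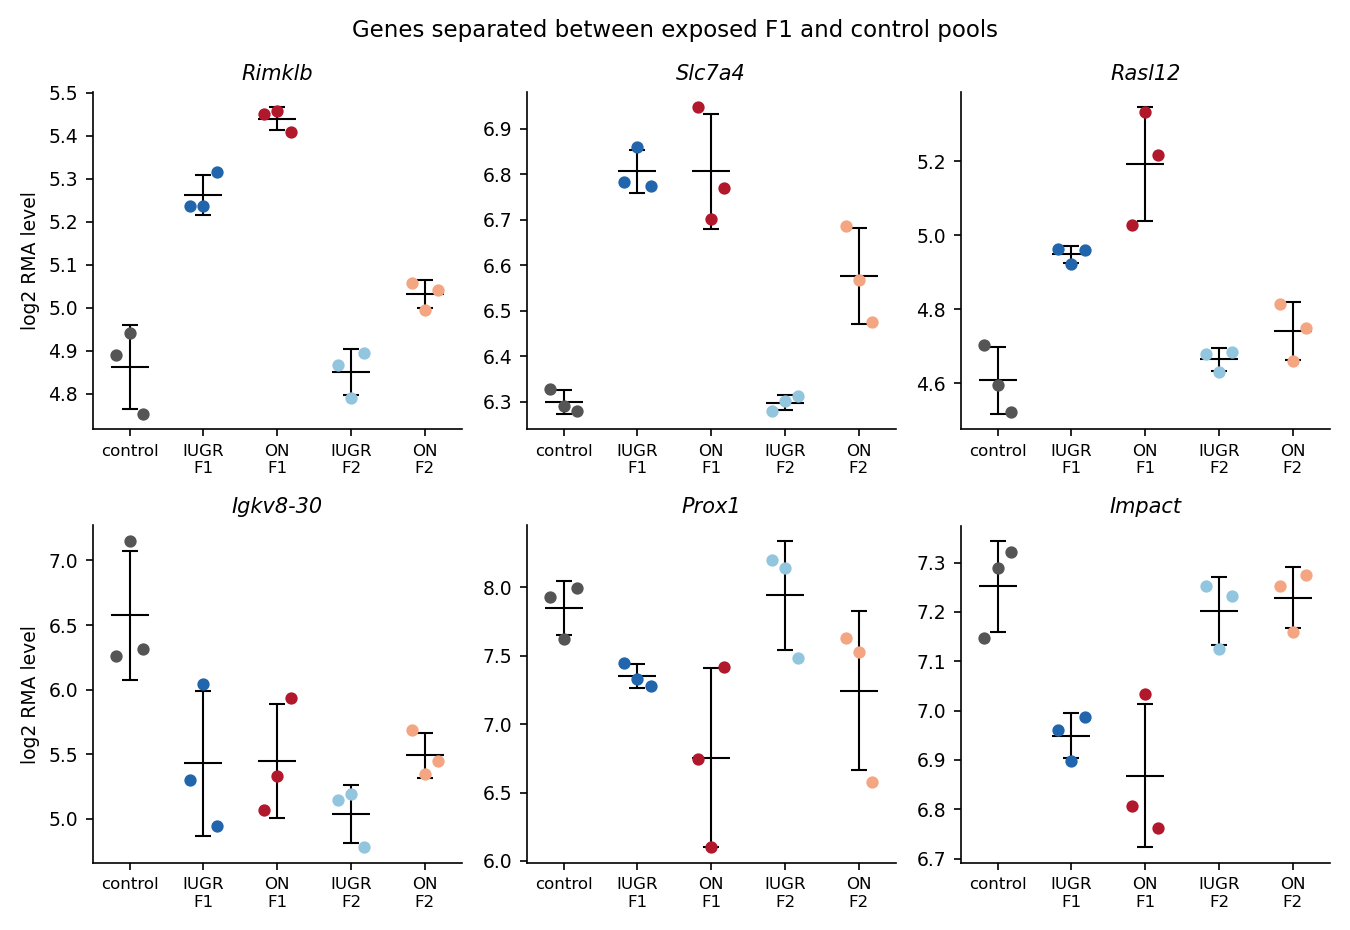
Log2 RMA level (y axis) of 6 genes in each pool, with 3 pools a group; points are pools, and bars are group mean ± SD. In the top row (Rimklb, Slc7a4, Rasl12) every IUGR F1 and ON F1 pool lies above every control pool. In the bottom row (Igkv8-30, Prox1, Impact) every exposed pool lies below them, and only Rimklb and Slc7a4 passed the test.

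Next in order of p-value were genes that were separated but not called, separated meaning that all 6 exposed pools lay on the same side of all 3 control pools. Rasl12, a small GTPase of the Ras superfamily, was 4.70, 4.60 and 4.52 in control, 4.96, 4.92 and 4.96 in IUGR F1 and 5.03, 5.33 and 5.22 in ON F1 pools. Its difference of 0.46 ± 0.07 missed the threshold (limma, adjusted p = 0.0735) and was called when ON F1 pool 7 was left out (0.50, adjusted p = 0.0194). Sh3gl2, which encodes the membrane-bending endophilin A1, was 0.44 ± 0.07 higher. Mm2pr was 0.42 ± 0.07 and 1700007L15Rik 0.37 ± 0.06 higher, and all 3 had an adjusted p of 0.1015. These genes were dim, with control levels between 4.25 and 5.16.

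Among the 6 separated genes with the smallest p-values on the lower side, Igkv8-30 and Impact were read at higher levels than Gria3 and Tpsg1. Igkv8-30, an immunoglobulin kappa variable gene expressed by B lineage cells, was 6.26, 7.15 and 6.31 in control pools, 5.30, 6.04 and 4.94 in IUGR F1 and 5.07, 5.33 and 5.94 in ON F1. The difference was -1.14 ± 0.24 (limma, adjusted p = 0.1343), the same in both exposures at -1.15 and -1.13. Impact, a paternally expressed imprinted gene whose product restrains the amino acid sensor GCN2, was 7.15, 7.29 and 7.32 in control, 6.96, 6.90 and 6.99 in IUGR F1 and 6.81, 7.03 and 6.76 in ON F1 pools. Its difference was -0.34 ± 0.07 (adjusted p = 0.1278), while its 2 dimmer probe sets differed by 0.17 and 0.03 in the opposite direction. Gria3, an AMPA-type glutamate receptor subunit, differed by -0.42 ± 0.08. Tpsg1, a mast cell tryptase, differed by -0.46 ± 0.09, Psg23 by -0.39 ± 0.08 and the link protein gene Hapln4 by -0.59 ± 0.13. The adjusted p of these 4 genes lay between 0.1194 and 0.1346 (limma).

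Beside Igkv8-30, the following separated genes had large differences; Ces1g, Cep128, 1810044D09Rik, Dmbt1, Sult5a1, Psmc3ip, AI467606 and Lifr were chosen after their values were seen. On the higher side, Ces1g, a hepatic carboxylesterase that hydrolyses lipid esters, was 9.08, 8.89 and 9.26 in control, 10.09, 9.92 and 10.22 in IUGR F1 and 9.46, 9.43 and 9.58 in ON F1 pools. It averaged 0.71 ± 0.21 higher (limma, adjusted p = 0.2138), with 1.00 in IUGR F1 and 0.41 in ON F1. G6pc, the catalytic subunit of glucose-6-phosphatase, which releases free glucose from hepatocytes, averaged 0.62 ± 0.14 higher (adjusted p = 0.1346). Cep128, a centrosomal protein gene, averaged 0.61 ± 0.13 and 1810044D09Rik 0.68 ± 0.14 higher. Dmbt1, which encodes a secreted mucosal glycoprotein, had the largest separated difference, 1.40 ± 1.01, but 5 of its 6 exposed pools were between 3.19 and 4.79 and ON F1 pool 9 was at 8.68. On the lower side, Cyp3a13, a drug-metabolising cytochrome P450, averaged -0.85 ± 0.28 (adjusted p = 0.2443). The sulfotransferase gene Sult5a1 averaged -0.81 ± 0.20, with -0.60 in IUGR F1 and -1.01 in ON F1. Prox1, a transcription factor of hepatocytes and lymphatic vessels, was 7.93, 7.62 and 7.99 in control, 7.45, 7.33 and 7.28 in IUGR F1 and 6.75, 6.10 and 7.42 in ON F1 pools, a difference of -0.79 ± 0.26. Psmc3ip, known for its part in meiotic recombination, averaged -0.79 ± 0.22, AI467606 -0.73 ± 0.20 and Lifr, the receptor for leukaemia inhibitory factor, -0.61 ± 0.15.

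Of all 18193 genes, 689 (3.79%) had every exposed pool above every control pool and 309 (1.7%) had every exposed pool below. At an unadjusted p under 0.05, 1541 genes (8.47%) were higher and 812 (4.46%) lower in the exposed pools. This excess of higher over lower genes lay among the dim genes. Of 4607 genes with a mean level between 4 and 5, 6.08% were separated above and 0.91% below, and their median difference was 0.05. Of 2540 genes with a mean level between 8 and 10, 0.55% were separated above and 3.50% below, and their median difference was -0.04. Both exposures had this pattern: in the class from 4 to 5 the median difference was 0.05 in IUGR F1 and 0.06 in ON F1, and in the class from 8 to 10 it was -0.04 in each.

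The direction of the split depended on how arrays were scaled. The median of all probe sets on an array was 4.64 ± 0.01 (SD, n = 6) in exposed and 4.61 ± 0.01 (SD, n = 3) in control pools, a difference of 0.03. An exact two-sided permutation test over pools gave p = 0.0476 for it, or 0.1905 after Benjamini-Hochberg adjustment over the 4 array measures tested, where 0.0238 is the smallest p that 6 against 3 pools allow. With each array centred on its median over all genes the split at an unadjusted p under 0.05 turned to 906 higher and 1507 lower, and that of separated genes to 382 above and 573 below. With arrays scaled to their 75th percentile it was 2307 higher and 403 lower, and 1060 above and 131 below. Among genes with a mean of at least 5, 600 were higher and 671 lower. Leaving out control pool 3 gave 972 higher and 486 lower. The direction of the whole-array split was thus not the same under these settings.

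**Figure D2:**
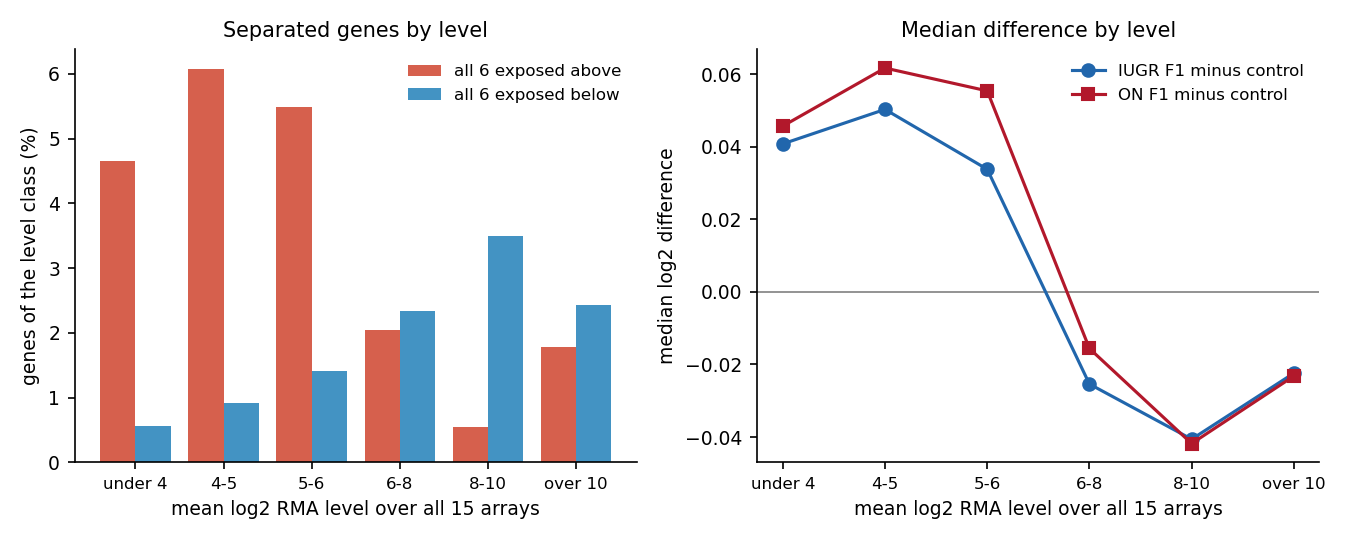
Left, share of genes (y axis, %) with all 6 exposed pools above or below the 3 control pools, by mean log2 level over all 15 arrays (x axis). Right, median log2 difference from control in the same level classes for IUGR F1 and ON F1. The share above reaches 6.08% at levels of 4 to 5 and drops to 0.55% at levels of 8 to 10, and both exposures cross from above 0 to below 0 at a level of about 6.

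**Figure D3:**
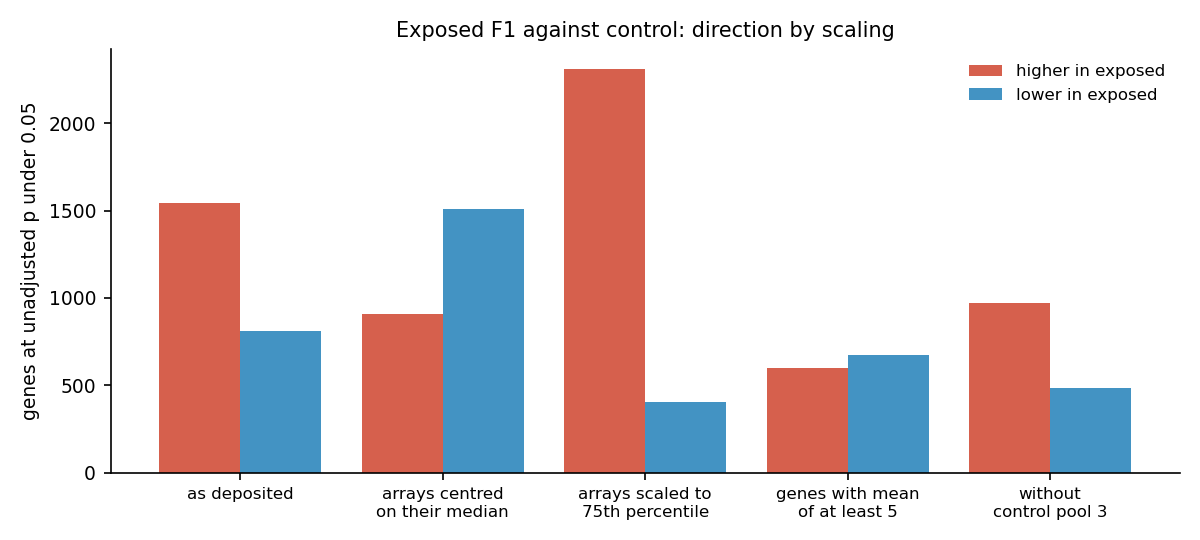
Number of genes (y axis) at an unadjusted p under 0.05 that were higher or lower in the 6 exposed than in the 3 control pools, under 5 settings (x axis). As deposited there were 1541 higher and 812 lower, and with arrays centred on their median 906 higher and 1507 lower.

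Gene groups were described by 49 lists chosen with earlier results of these data known, 1 of which holds 20 genes already singled out in those results. No list holds a called gene except the amino acid transporters, with Slc7a4, and the list from earlier results, with Rimklb and Slc7a4. List values below are medians over the measured genes of a list, beside a median of 0.01 over all 18193 genes. That median varied with level: it was -0.02 for genes from 6 to 8, -0.04 from 8 to 10 and -0.02 over 10. Small negative medians of bright lists are to be read against these values. Apart from Rimklb and Slc7a4 no list member was called, and the counts in a list are to be read against the 4.46% of all genes that were lower and the 8.47% that were higher at an unadjusted p under 0.05. Likewise, 8348 of all genes had a difference below 0 and 9845 above 0, and 1.7% were separated below and 3.79% above.

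Acute phase and complement genes averaged lower in both exposed groups, without a called gene in exposed against control. The acute phase plasma proteins, which the liver releases in inflammation, had a median difference of -0.34, with 22 of 24 measured genes below control and 4 at an unadjusted p under 0.05. The list median was -0.30 in IUGR F1, with 22 genes lower, and -0.33 in ON F1, with 23 lower. Crp, the C-reactive protein gene, was 12.40, 11.99 and 12.37 in control, 11.82, 12.04 and 11.77 in IUGR F1 and 11.76, 12.11 and 11.99 in ON F1 pools. The groups overlapped through control pool 2, and the difference was -0.34 ± 0.11 (limma, adjusted p = 0.2553). Apcs, serum amyloid P, averaged -0.54 ± 0.20 and the interleukin 6 receptor gene Il6ra -0.60 ± 0.26. By pool, the list median relative to the control mean was -0.22, -0.02 and -0.44 in IUGR F1 and -0.59, -0.11 and -0.09 in ON F1. Control pool 3 was highest at 0.22 and the other two control pools at -0.08 and -0.07, and without control pool 3 the list median was -0.22. Complement components, which tag and lyse microbes, had a median of -0.12, with 21 of 24 genes lower and 6 at an unadjusted p under 0.05. The list also holds genes that macrophages express, such as C1qa, C1qb and C1qc. Its pools overlapped, with control pool 1 at -0.12 below IUGR F1 pools 4 and 5 (-0.10 and -0.01) and ON F1 pools 8 and 9 (-0.03 and -0.06). Hc, complement C5, was carried by ON F1: -0.07 in IUGR F1 and -0.65 in ON F1, where some settings called it lower. C8b, of the membrane attack complex, averaged -0.13 and -0.62 in the same order.

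Kupffer cell markers also averaged lower; these cells are macrophages that live in the liver sinusoids. In whole liver, fewer cells of a type and less RNA per cell cannot be told apart. The median of 20 Kupffer markers was -0.34, with 18 lower and 6 at an unadjusted p under 0.05, and it was -0.49 in IUGR F1 and -0.15 in ON F1. Their mean level ranged from 6.85 to 7.26 in control and from 6.56 to 6.96 in exposed pools, and 3 of the 20 had a mean under 5. Fcna, ficolin A, a lectin of these macrophages, was 7.32, 7.40 and 7.64 in control, 7.07, 6.93 and 6.78 in IUGR F1 and 7.12, 7.03 and 7.00 in ON F1 pools. All exposed pools lay below all control pools (-0.47 ± 0.13, limma adjusted p = 0.1839). C1qb, a complement gene that macrophages express, averaged -0.51 ± 0.18, and Hmox1, haem oxygenase, -0.39 ± 0.15. Control pool 3 was again highest, at 0.29 against -0.17 and -0.05 for the other two, and without it the list median was -0.16. The part of macrophage content in the acute phase and complement values was not tested.

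The remaining immune lists differed from each other. B cell and immunoglobulin genes had a median of -0.07 over 12 genes, yet the plasma cell transcript Jchain was 6.26, 7.41 and 6.19 in control, 5.26, 6.21 and 5.13 in IUGR F1 and 5.33, 5.67 and 5.89 in ON F1 pools. Its difference was -1.04 ± 0.28 (limma, adjusted p = 0.176) beside the -1.14 of Igkv8-30. Both were highest in control pool 2. Pax5, a B cell transcription factor read near the lower end of the scale, averaged 0.25 ± 0.08. For T and NK cell markers the median was 0.10 and 15 of 16 genes were higher, but 13 of the 16 had a mean under 5, where the median over all genes was also above 0. Zap70, a kinase of the T cell receptor, was 7.23, 7.17 and 6.91 in control, 7.44, 7.54 and 7.68 in IUGR F1 and 7.45, 7.88 and 7.72 in ON F1 pools, a separated difference of 0.51 ± 0.11 (adjusted p = 0.1237). Of its 2 other probe sets 1 differed in the opposite direction. MHC class II genes had a median of -0.07 over 11 genes, with H2-Ea at 0.57 ± 0.11 and H2-Eb1 at -0.56 ± 0.24. The exposures went apart in this list: the median was -0.10 in IUGR F1, with 9 genes lower, and 0.09 in ON F1, with 7 higher. Neutrophil markers had a median of -0.06 over 11 genes, 9 of them with a mean under 5.

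Interferon-stimulated genes were not shared. Their median over 27 genes was 0.02 for both exposures together but -0.28 in IUGR F1, with 23 genes lower, and 0.31 in ON F1, with 21 higher. The ON F1 value was carried by pool 8, at 0.98, while pools 7 and 9 stood at -0.03 and -0.09. Without pool 8 the list median was -0.19. Mndal, an interferon-inducible DNA-binding protein gene, averaged -0.73 in IUGR F1 and -0.25 in ON F1. Cgas, the cytosolic DNA sensor, averaged 0.52 and 0.20.

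**Figure D4:**
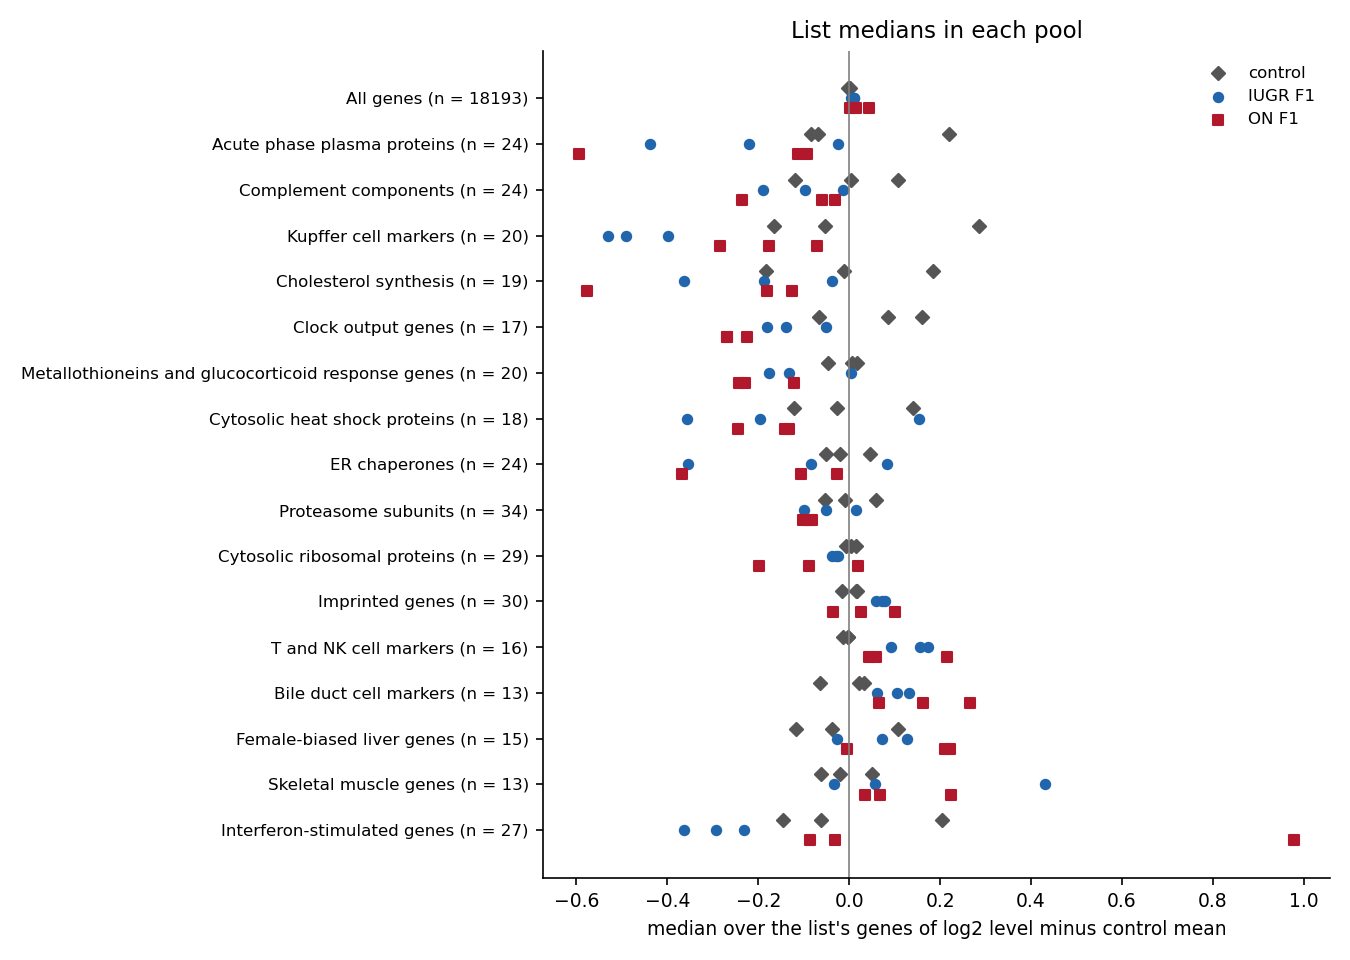
Median over the genes of a list of the log2 level minus the control mean (x axis) in each control, IUGR F1 and ON F1 pool, for all genes and 16 lists (y axis, with the number of measured genes). Acute phase, complement, Kupffer and cholesterol synthesis lists lie to the left in all 6 exposed pools, with control pool 3 farthest to the right in these lists. The interferon list is spread by ON F1 pool 8 at 0.98.

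Cholesterol synthesis genes averaged lower together. All 19 measured had a difference below 0, with a median of -0.23, and 4 of them had an unadjusted p under 0.05. In IUGR F1 16 of the 19 and in ON F1 all 19 were below control, with medians of -0.21 and -0.27. Msmo1, the sterol C4-methyl oxidase, was 11.17, 11.23 and 11.66 in control, 10.98, 10.97 and 10.83 in IUGR F1 and 10.41, 10.58 and 11.17 in ON F1 pools. Its difference was -0.53 ± 0.22 (limma, adjusted p = 0.3356). Dhcr7, the last enzyme of the pathway, averaged -0.33 ± 0.13 and Nsdhl -0.30 ± 0.13. The ranges of the list overlapped, since control pool 2 stood at -0.18 and IUGR F1 pool 4 at -0.04. Control pool 3 was highest, at 0.19. The F2 pools also lay below the control mean, between -0.53 and -0.02, and the list median of exposed F1 minus F2 was 0.02. The lower values were thus not particular to the exposed males. Fatty acid synthesis, in contrast, had a median of -0.02 over 22 genes and was spread among the ON F1 pools, with pool 7 at 0.60 and pools 8 and 9 at -0.25 and -0.29. Scd2, a fatty acid desaturase, averaged -0.67 ± 0.20, with control pool 2 at 5.78 inside the exposed range of 5.34 to 6.18.

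Of the other lipid lists, 3 had medians near that of all genes. Fatty acid oxidation and PPARA targets had a median of 0.03 over 23 genes, lipoprotein assembly and uptake 0.00 over 19, lipid droplet and fatty acid uptake 0.01 over 20, while bile acid synthesis and transport stood at -0.09 over 19, with 8 genes lower in IUGR F1 (median 0.02) and 13 in ON F1 (-0.10). Within them Plin4, a lipid droplet coat protein, was 4.81, 4.98 and 4.77 in control, 5.21, 5.03 and 5.15 in IUGR F1 and 5.01, 5.16 and 5.11 in ON F1 pools, a separated difference of 0.26 ± 0.07 (limma, adjusted p = 0.176). Lrp1, a receptor that clears remnant lipoproteins, was separated below control by -0.18 ± 0.09. Cyp27a1, of the alternative bile acid pathway, averaged -0.20 ± 0.08.

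In glucose handling, G6pc and Pck1, 2 of the genes of glucose output, went apart. G6pc was 10.11, 10.03 and 10.43 in control, 10.82, 10.48 and 10.91 in IUGR F1 and 10.98, 10.53 and 11.16 in ON F1 pools, above control in all 6. It averaged 0.55 in IUGR F1 and 0.70 in ON F1, and the 95% interval of the difference between them ran from -0.50 to 0.19. Pck1, the cytosolic PEP carboxykinase of gluconeogenesis, was 10.92, 11.11 and 11.67 in control, 10.44, 11.66 and 10.46 in IUGR F1 and 9.17, 9.88 and 10.39 in ON F1 pools. Its difference of -0.90 ± 0.33 came to -0.38 in IUGR F1, where pool 5 was level with the highest control pool, and -1.42 in ON F1. The gluconeogenesis and glycolysis list had a median of 0.01 over 14 genes. Of the insulin and growth hormone signalling list, with a median of 0.02 over 23 genes, Akt1, the kinase downstream of the insulin receptor, averaged -0.31 ± 0.10 and the receptor gene Insr -0.19 ± 0.08, the latter at -0.19 in each exposure. Insr was 9.32, 9.46 and 9.50 in control and between 9.13 and 9.44 in exposed pools, so the groups overlapped.

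Protein folding genes averaged lower after exposure, with overlapping pools. Endoplasmic reticulum chaperones and genes of the unfolded protein response stood at a median of -0.12. Of these 24 genes, 22 were lower, 2 had an unadjusted p under 0.05 and 3 were separated below. Hsp90b1, the chaperone GRP94 of the secretory pathway, was 11.84, 11.89 and 12.08 in control, 11.63, 11.83 and 11.33 in IUGR F1 and 11.51, 11.63 and 11.63 in ON F1 pools. The difference was -0.34 ± 0.10 (limma, adjusted p = 0.2006), at -0.34 in IUGR F1 and -0.35 in ON F1, and the highest exposed pool lay just below the lowest control pool. At a second, dimmer probe set the difference was -0.64, but the exposed pools (8.73 to 10.44) spanned the control range (9.91 to 10.34). Herpud1, of endoplasmic reticulum protein degradation, averaged -0.39 ± 0.18, and Hspa5, the main chaperone BiP, named here after its values were seen, averaged -0.19 ± 0.14. The list was at -0.36 in IUGR F1 pool 6 and -0.37 in ON F1 pool 7 but at 0.08 in IUGR F1 pool 5, and control pool 2 at -0.05 lay below ON F1 pool 9 at -0.03. Cytosolic heat shock proteins had a median of -0.14, with 14 of 18 lower and 1 at an unadjusted p under 0.05, and Hspb8 averaged -0.37 ± 0.12. IUGR F1 pool 5 again stood apart, at 0.15 against -0.20 and -0.36 in pools 4 and 6, and control pool 1 at -0.12 was close to ON F1 pools 8 and 9 at -0.14 and -0.13. The F2 pools ranged from -0.44 to 0.03 in the chaperone list and from -0.21 to 0.06 in the heat shock list. The list medians of exposed F1 minus F2 were 0.02 and 0.01 in the same order. ATF4 response and serine synthesis genes had a median of -0.06 over 19 genes. Adm2, the hormone intermedin, was separated above by 0.48 ± 0.09 (adjusted p = 0.1015), and Asns, asparagine synthetase, averaged -0.85 ± 0.29 with IUGR F1 pool 5 at 6.92, above every control pool.

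Promoters of 2 of these genes are shown because Hsp90b1 and Herpud1 had the smallest p-values of the chaperone list. The part CCACG of the endoplasmic reticulum stress element was found in 16 of 21 windows of the list (76.2%). It was found in 28.3% of the 32851 RefSeq windows searched, which did not cover every chromosome. It was also found in 12 of 19 windows (63.2%) of the cholesterol synthesis list, so it does not mark the chaperones alone. A match is a description of letters and not a binding site. Capitals mark the motifs found, here CCACG or its complement CGTGG in both windows and TGACG once in Herpud1. RefSeq places the Hsp90b1 window at chr10:86705445-86705694 on the minus strand and the Herpud1 window at chr8:94386179-94386428 on the plus strand of GRCm38.p6.
Hsp90b1: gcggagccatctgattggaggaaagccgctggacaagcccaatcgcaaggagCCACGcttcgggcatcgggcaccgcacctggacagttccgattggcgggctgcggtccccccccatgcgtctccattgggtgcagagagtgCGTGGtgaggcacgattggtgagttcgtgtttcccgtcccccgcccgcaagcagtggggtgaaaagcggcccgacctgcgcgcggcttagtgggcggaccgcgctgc
Herpud1: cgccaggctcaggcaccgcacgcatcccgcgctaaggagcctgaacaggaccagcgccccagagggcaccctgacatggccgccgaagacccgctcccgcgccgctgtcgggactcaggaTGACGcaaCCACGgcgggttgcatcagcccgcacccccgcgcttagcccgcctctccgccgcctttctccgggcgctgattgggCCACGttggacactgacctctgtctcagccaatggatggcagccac

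Among metallothioneins and glucocorticoid response genes the median was -0.16, 15 of 20 were lower and 0 at an unadjusted p under 0.05 (limma). Mt1, a zinc-binding metallothionein, was 12.44, 10.70 and 11.29 in control, 7.29, 12.37 and 6.90 in IUGR F1 and 6.37, 10.37 and 9.90 in ON F1 pools. The difference of -2.61 ± 1.29 (limma, adjusted p = 0.4117) had a large error. IUGR F1 pool 5 stood with the control pools, and the ON F1 pools were themselves spread. Mt2 had the same difference, -2.61 ± 1.25, with pool 5 at 11.49 and the other exposed pools between 6.15 and 7.39. Clock output genes had a median of -0.24, with 12 of 17 lower. Noct, a rhythmic phosphatase, averaged -0.99 ± 0.36, which was -0.32 in IUGR F1 and -1.66 in ON F1. The core clock list had a median of -0.02 over 16 genes, with Npas2 at 1.04 ± 0.39. A clock score over 6 rhythmic genes, standing for time of day, was -0.36 ± 0.77 (SD, n = 6) in exposed and 0.23 ± 1.12 (SD, n = 3) in control pools (exact permutation test, two-sided, p = 0.3333). The score was built from Dbp, Tef, Per3, Ciart, Arntl and Npas2 on these same arrays. A clock list median fitted with it is thus not independent of it. With that score as a covariate the clock output median was -0.08, and without control pool 2 it was -0.05. Rimklb (0.50) and Slc7a4 (0.52) remained called with the score.

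Of the detoxification lists, the targets of the receptors CAR and PXR had a median of 0.04 over 19 genes, with -0.11 in IUGR F1 and 0.08 in ON F1. Cyp3a13 was lower in both exposures, at 9.47, 9.91 and 10.10 in control, 8.73, 9.45 and 9.12 in IUGR F1 and 9.10, 8.49 and 8.96 in ON F1 pools. Cyp2b10, a classical CAR target, averaged 0.34 in IUGR F1 and 1.77 in ON F1. Cyp2b13, a female-biased P450, was separated above by 0.70 ± 0.23, with ON F1 pool 8 at 6.06 and the other 5 exposed pools between 4.57 and 4.92. NRF2 targets and glutathione genes had a median of -0.04 over 25 genes, 4 of them lower at an unadjusted p under 0.05. In IUGR F1 21 of the 25 were lower (median -0.09) and in ON F1 11 (median 0.02). Keap1, the NRF2 inhibitor, was separated below by -0.16 ± 0.06. Other cytochromes P450 had a median of -0.01 over 22 genes. Female-biased liver genes had a median of 0.12, with 13 of 15 higher and 10 of the 15 with a mean under 5. By exposure, 9 of the 15 were higher in IUGR F1 (median 0.08) and 10 in ON F1 (median 0.25). Male-biased genes had a median of -0.03 over 14 genes, with 6 lower in IUGR F1 (median 0.02) and 10 in ON F1 (median -0.13). Of the 23 amino acid transporters measured, Slc7a4 among them, 16 were lower, and the median was -0.09. Urea cycle and amino acid breakdown genes had a median of -0.01 over 19 genes, and Hal, histidine ammonia-lyase, was separated above by 0.27 ± 0.09. Mthfd1, a folate enzyme of the methionine and one-carbon list, was separated above by 0.25 ± 0.08 at its brightest probe set, but the mean of its probe sets differed by -0.0049.

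The general machinery of the cell showed small differences. Proteasome subunits had a median of -0.07, with 28 of 34 lower, and cytosolic ribosomal proteins -0.06, with 20 of 29 lower. Their median levels were 9.96 and 11.75, in level classes where the median over all genes was -0.04 and -0.02. Mitochondrial ribosomal proteins had a median of -0.02 over 35 genes and respiratory chain subunits 0.03 over 36, with Cox5b, a subunit of cytochrome oxidase, separated above by 0.15 ± 0.06. Cell cycle and replication genes had a median of 0.02 over 27 genes, and Mcm2, of the replicative helicase, was separated above by 0.28 ± 0.09. With arrays scaled to their 75th percentile the proteasome median was -0.03 and the ribosomal median -0.02.

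Of the genes that write or read epigenetic marks, Dnmt3b, a de novo DNA methyltransferase, was 6.52, 6.08 and 6.43 in control, 7.08, 6.26 and 6.83 in IUGR F1 and 6.84, 6.76 and 7.04 in ON F1 pools. Its difference of 0.46 ± 0.18 (limma, adjusted p = 0.3152) was not separated, because IUGR F1 pool 5 lay within the control range. The list of DNA methylation genes had a median of 0.02 over 17 genes. Histone methylation and acetylation enzymes had a median of -0.05, with 19 of 26 lower, and Ehmt2, a histone H3 lysine methyltransferase, was separated below by -0.19 ± 0.06. Imprinted genes had a median of 0.09 over 30 genes, of which 14 had a mean under 5, with 7 higher and 4 lower at an unadjusted p under 0.05. Of the 30 genes, 3 were separated above and 2 below. Gnas, the stimulatory G protein alpha subunit, was separated below by -0.20 ± 0.07 together with Impact. Among imprinted genes with a mean of at least 5 the median was -0.13, opposite in sign to that of the whole list.

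Marker lists of other cells differed in direction and in how dim their genes were. For bile duct cell markers the median was 0.15 over 13 genes, 9 of them with a mean under 5, and Sox9, a transcription factor of duct cells, averaged 0.38 ± 0.14. Skeletal muscle genes had a median of 0.18 over 13 genes, 12 of them with a mean under 5, with IUGR F1 pool 5 at 0.43 and Myl1, a muscle myosin light chain, at 4.69 there. Without that pool the median was 0.03. Pancreatic acinar genes had a median of 0.12 over 10 genes, 8 of them higher and 4 with a mean under 5. The median of sinusoidal endothelial markers was 0.08, 13 of 17 genes being higher and 2 of the 17 with a mean under 5, and stellate cell and matrix genes one of -0.06 over 21. Erythroid genes (0.00 over 7), adipocyte markers (-0.02 over 8), hepatocyte markers (-0.03 over 14), hepatocyte transcription factors (-0.04 over 22) and immediate early genes (0.00 over 21) gave medians within 0.05 of 0. Without control pool 2 the erythroid median was -0.12, and without control pool 1 the adipocyte median was 0.08. The part of cell composition in any liver-wide value was not tested.

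Where the exposures differed was tested directly as IUGR F1 minus ON F1, a contrast without the control pools. It called 2 genes (0.011%), 1 in each direction. H2bc21, a histone H2B gene, was 6.50, 6.55 and 6.31 in IUGR F1 and 5.86, 5.50 and 5.51 in ON F1 pools, against 6.05, 6.30 and 6.38 in control. The difference was 0.83 (limma, adjusted p = 0.044). Adi1, an enzyme of methionine salvage, was 8.18, 8.32 and 8.36 in IUGR F1 and 9.17, 9.10 and 9.16 in ON F1 pools, against 8.25, 8.75 and 8.55 in control, a difference of -0.86 (adjusted p = 0.0374). With the 9 arrays alone or the actin ratio as a covariate 0 genes were called, and leaving out control pool 3 or IUGR F1 pool 5 or 6 also left 0 (limma). Without control pool 2 only Adi1 was called, and without ON F1 pool 7 H2bc21 and Ptpre were. Neither Adi1 nor H2bc21 was called without IUGR F1 pool 4 (Ctse was), ON F1 pool 8 (Lpl was) or ON F1 pool 9 (Cd36, Smim3 and Vnn1 were).

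Some pooled values were mostly those of 1 exposure, although these differences between the exposures did not pass the test. Lpl, the lipase that frees fatty acids from lipoprotein triglyceride, averaged 0.15 in IUGR F1 and -1.29 in ON F1. There pools 7 to 9 were at 8.01, 9.00 and 7.92 against 9.50 to 9.72 in control. The exposures differed by 1.44 with a 95% interval of 0.93 to 1.94, but the adjusted p over all genes was 0.1145, and 0.001884 without ON F1 pool 8 (limma). Moxd1, a male-biased liver gene, averaged -0.46 in IUGR F1 and -3.61 in ON F1, with ON F1 pools at 4.30, 6.36 and 8.29. Cyp2b9, a female-biased P450 named after its values were seen, averaged -0.20 and 2.14. Camk2b, a calcium-dependent kinase subunit, averaged 0.69 and -0.89, and its mean over both exposures, -0.10 ± 0.23, describes neither.

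**Figure D5:**
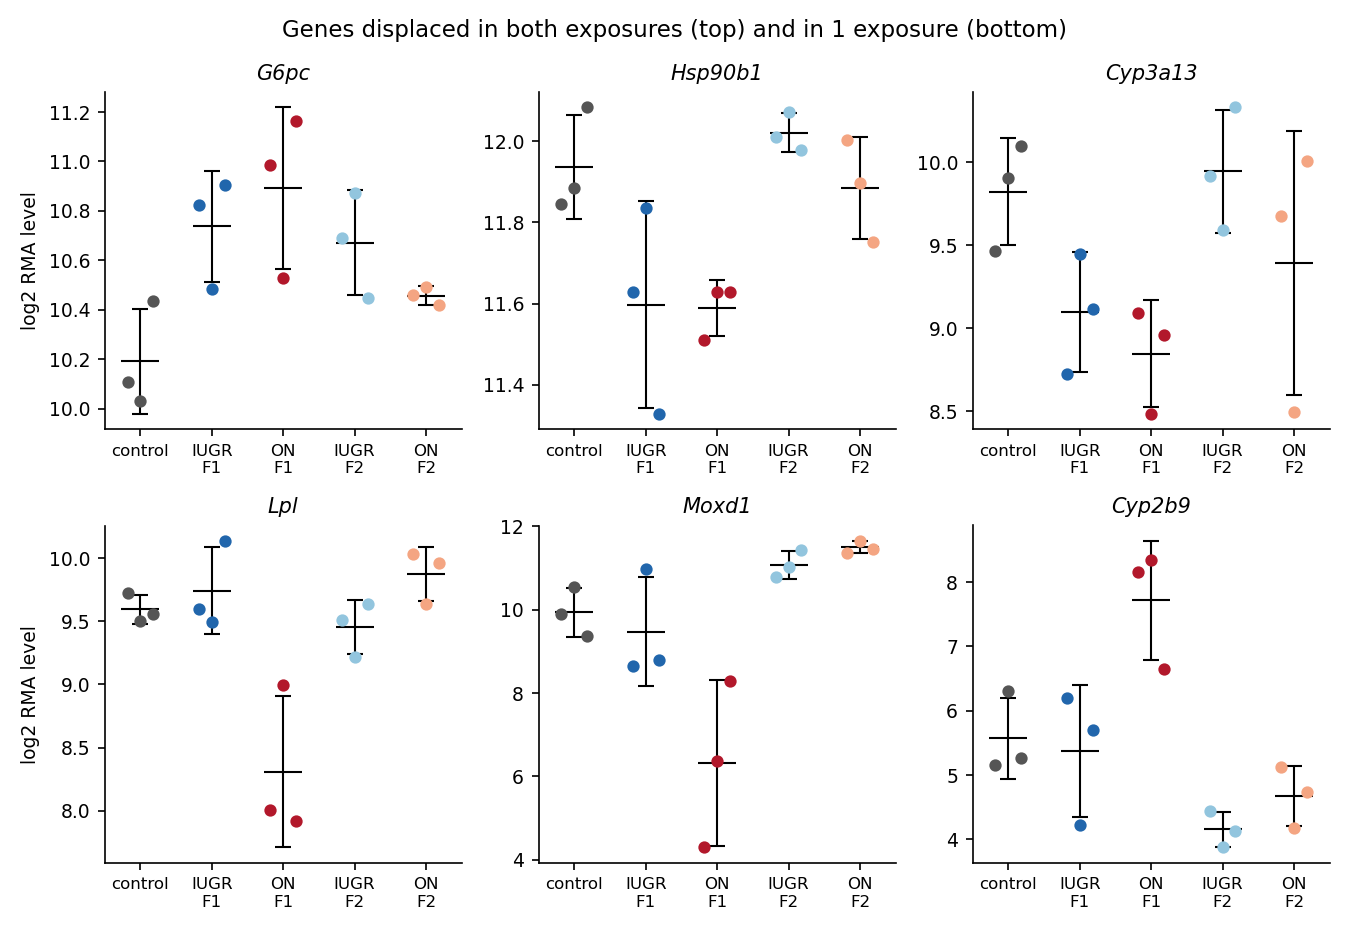
Log2 RMA level (y axis) of 6 genes in each pool, with 3 pools a group; points are pools, and bars are group mean ± SD. G6pc, Hsp90b1 and Cyp3a13 (top) stand on 1 side of the control pools in both IUGR F1 and ON F1. Lpl, Moxd1 and Cyp2b9 (bottom) have ON F1 means of -1.29, -3.61 and 2.14 relative to control and IUGR F1 means of 0.15, -0.46 and -0.20, and none of the 6 genes passed the test of exposed against control.

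The exposed males were also compared with the second-generation pools, a contrast that uses no control pools. Here 447 genes (2.46%) were higher and 246 (1.35%) lower in the exposed F1 males. Rimklb was among the 447: the sons' pools were at 4.87, 4.79 and 4.89 in IUGR F2 and 5.06, 4.99 and 5.04 in ON F2, and the F1 pools were higher by 0.41 ± 0.05 (limma, adjusted p = 0.003851). Slc7a4 was higher in F1 by 0.37 ± 0.05 (adjusted p = 0.0101), but the generations differed by lineage, with IUGR F2 pools at 6.28, 6.30 and 6.31, level with control, and ON F2 pools at 6.69, 6.57 and 6.47, between control and ON F1. Ntrk2, the receptor of brain-derived neurotrophic factor, was not separated from control, with control pool 2 at 7.06 and IUGR F1 pool 5 at 6.99. It was between 6.02 and 6.47 in all 6 F2 pools, and F1 was higher by 1.25 ± 0.17 (adjusted p = 0.006088). Igkv8-30 and Jchain were low in the F2 pools as in the exposed males, with F1 minus F2 differences of 0.17 ± 0.20 and 0.41 ± 0.23 (adjusted p = 0.6464 and 0.3012).

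The smallest p-value of that contrast belonged to Pls1, whose control pools lay between the generations. Pls1, the actin-bundling plastin 1, was 6.04 to 6.89 in exposed F1, 5.78 to 6.00 in control and 5.04 to 5.51 in F2 pools, with an F1 minus F2 difference of 1.04 ± 0.11 (limma, adjusted p = 0.00206). Clic5, a chloride channel family member, differed by 0.87 ± 0.11, Sppl2a, an intramembrane protease, by -0.43 ± 0.06, and Pxylp1, a phosphatase acting on proteoglycan xylose, by -0.51 ± 0.07. The counts of this contrast depended on the clock score and on single pools: with the score as a covariate 81 genes were higher and 61 lower, and without IUGR F1 pool 4 they were 93 and 56, without IUGR F1 pool 6 they were 121 and 81, and without ON F1 pool 7 they were 222 and 180. No single F2 pool was left out, so the dependence on those pools is not shown. With arrays centred on their median the split was 190 higher and 350 lower, and scaled to their 75th percentile 216 and 249.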

How the data were processed

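Liver RNA of 15 pools was hybridised to Affymetrix mouse genome arrays, with 3 arrays a group. The authors deposited log2 expression levels per probe set, which per the submitters' processing notes came from RMA; its version and settings are not given in the sources used here. RMA values carry no count, and the number of arrays limits the precision. Of 45101 probe sets 64 were array controls, 34945 carried 1 gene symbol, 932 several and 9160 none; 34741 matched a RefSeq gene. Probe sets with 1 symbol gave 18193 genes, each read at its brightest probe set on average (9010 genes had several).

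A limma model (version 3.58.1, R 4.3.3) with 5 group means was fitted to all 15 arrays, with eBayes moderation (10 residual and 4.69 prior degrees of freedom), and the Benjamini-Hochberg adjustment ran over all genes at a threshold of 0.05. The median standard error of exposed minus control was 0.0897. Single array measures were compared by an exact two-sided permutation test over all 84 regroupings of 6 and 3 pools. Gene lists were described by counts and medians without a test.

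Named genes were the called and separated genes of each direction or, where fewer than 6 passed, the 6 separated genes with the smallest p-values; per list its called members, or otherwise the 3 with the smallest p-values; the 4 of each direction with the smallest p-values between the exposures and between generations; and genes of earlier results. Not every gene so listed is described. Dmbt1, Ces1g, 1810044D09Rik, Cep128, Sult5a1, Psmc3ip, AI467606, Lifr, Ntrk2, Cyp2b9 and Hspa5 were added after their values were seen. The members and lists were chosen with earlier results of these data known. Alternatives changed the arrays fitted, the moderation, the probe set rule, the filter on dim genes, the array scaling, a covariate, or left out 1 control or F1 pool.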

Additional observations from a re-analysis of the deposited data

Results flagged for a closer look

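In 11 of 133 genes and list medians examined, 1 of the 6 exposed pools stood far from the other 5 by Dixon's test, which chance does in about 1 of 20 groups. IUGR F1 pool 5 was high in Asns (6.92, nearest pool 5.77), Hspb8 (10.63, nearest 10.20), Mt2 (11.49, nearest 7.39) and Myl1 (4.69, nearest 3.70). IUGR F1 pool 4 was high in AI467606 (4.95, nearest 4.39). ON F1 pool 8 was high in Cyp2b13 (6.06, nearest 4.92) and in the median of the interferon-stimulated genes (0.98, nearest -0.03). ON F1 pool 9 was high in Dmbt1 (8.68, nearest 4.79). ON F1 pool 7 stood apart in the medians of amino acid transporters (-0.20, nearest -0.06), of methionine cycle and one-carbon genes (0.10, nearest 0.03) and of B cell and immunoglobulin genes (-0.28, nearest -0.08).

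The exposures differed in H2bc21 by 0.83 (limma, adjusted p = 0.044) and in Adi1 by -0.86 (limma, adjusted p = 0.0374), as IUGR F1 minus ON F1. In Camk2b every IUGR F1 pool lay above and every ON F1 pool below the control mean, and the difference of 1.58 did not pass the test (limma, adjusted p = 0.1145).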

How the results depend on the processing

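No paired analysis was possible because the pool numbers run from 1 to 15 and are not shared between groups. The 2 calls of exposed against control became 0 with the 9 arrays alone, whether fitted as 3 group means or as 2 means, and 0 with the mean of probe sets, 1 with arrays centred on their median and 4 with arrays scaled to their 75th percentile. Leaving out 1 pool gave 0 to 5 calls. The 2 calls between the exposures became 0 with the 9 arrays alone, 1 with a trended moderation, 1 with the clock score and 0 with the actin ratio as a covariate, and 0 to 3 with 1 pool left out. Calls between generations were 142 with the clock score and 149 to 790 with 1 control or F1 pool left out. No single F2 pool was left out, although the F2 pools enter that contrast. Genes higher at an unadjusted p under 0.05 were 600 among genes with a mean of at least 5, 906 with median centring and 972 to 1630 with 1 pool left out; lower genes were 1507 with median centring, 403 with the 75th percentile and 486 to 967 with 1 pool left out. Genes separated above were 259 among genes with a mean of at least 5, 382 with median centring, 1060 with the 75th percentile and 803 to 1453 with 1 pool left out; genes separated below were 573, 131 and 364 to 875 in the last 3 of these settings. Dropping a pool leaves fewer pools to separate, which raises the last 2 counts by construction; the cause of the other changes was not tested. Exposed minus control changed sign for Mthfd1 (-0.0049), Cyp1b1 (0.0463) and Rrm1 (-0.0215) with the mean of probe sets, and for Ucp1 (0.1426) without control pool 1, its range with 1 pool left out being -0.5556 to 0.1426. Over all lists and settings 955 recomputed list medians stayed within the spread between exposed pools and 25 did not, among them CAR and PXR targets at -0.17 without control pool 3. The sign of the median turned in 104 of these, in 26 lists, most of them near 0. It turned 8 times each for lipid droplet, lipoprotein and erythroid genes and 7 each for fatty acid synthesis and interferon-stimulated genes.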
